A study of Mus musculus with 30 samples.

Results

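Bisphenol A (BPA in the labels) was compared with its solvent, DMSO, in the mouse line 3T3-L1, preadipocytes of embryonic origin that become fat cells when given the right hormones. The comparison rests on 6 of the 30 arrays of the series, 3 labelled BPA and 3 labelled DMSO, chosen by their titles, and covers 14763 named genes. From 2 days after confluence the cells of both groups were kept in medium with 10% foetal bovine serum, and BPA or the solvent control of 0.1% DMSO was present for 10 days before RNA was taken. The dose of BPA is not given in the sources used here. Each sample was labelled with Cy3 and hybridised to a 2-colour Agilent array with a Cy5-labelled reference, which mixed equal aliquots of control and exposed samples. The other 8 groups, also with 3 arrays each, are labelled MDI (the positive control: isobutyl methylxanthine, dexamethasone and insulin for 48 h, then insulin alone), ROSI, BP, EB, DEHP, BBP, PP and TBT. The dose of these compounds is not given in the sources used here either, so differences between exposures are differences between these samples and not between potencies. All groups come from 1 cell line. Samples of a group are described as biological replicates in the series record. Whether each came from its own culture is not stated in the labels, so the p-values measure the spread between these samples.

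BPA is a plastic monomer best known as a weak oestrogen receptor agonist, and it also binds the oestrogen-related receptor gamma. In 3T3-L1 cells, fat cell formation runs through a relay of transcription factors: the early factors C/EBP beta and delta switch on PPAR gamma and C/EBP alpha, which maintain each other and turn on the genes of fat uptake, storage and adipokine secretion. As cells differentiate they build mitochondria and give up the matrix, contractile and growth programme of the fibroblast.

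Every value below is a log2 ratio of sample over reference, so levels can be compared between samples for a gene but not between genes. A log2 fold change is the BPA mean minus the DMSO mean, for 3 against 3 arrays, given with its standard error after ±. That error rests on a spread per gene pooled over all 30 arrays. It can be smaller than the scatter of the BPA and DMSO arrays alone would give. A gene is called higher or lower at a limma p-value under 0.05 after Benjamini-Hochberg adjustment. Of the 14763 named genes, 3031 (20.5%) were called, 1856 (12.6%) higher and 1175 (7.96%) lower in BPA. The changes were mostly small, with a median log2 fold change of 0.27 among the higher and -0.26 among the lower genes, and 57 higher and 17 lower genes moved by at least 2-fold. The BPA and DMSO arrays did not overlap for 34.6% of the named genes. Of all called genes 61.2% were higher and 38.8% lower. After quantile normalization, which gives all arrays 1 distribution of ratios, 48.4% were higher and 51.6% lower, and many of the rises described below became smaller. The 3 BPA arrays correlated with each other at 0.619 to 0.699 over all entries and the DMSO arrays at 0.835 to 0.85. The ratios themselves were less spread in BPA, with SDs of 0.177 to 0.237 per array, against 0.238 to 0.288 in DMSO. Deviations from the group mean were closer, with SDs of 0.095 to 0.118 in BPA and 0.080 to 0.093 in DMSO. No 2 arrays held the same values.

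The genes of mature fat cells rose together in BPA. Of the 28 measured members of the list of adipocyte markers, 25 were higher (89.3%, against 12.6% of all named genes) and 0 lower, with a median log2 fold change of 1.16 against 0.01 over all named genes. Fabp4, the fatty acid binding protein of fat cells, had log2 ratios of -1.35, -1.38 and -1.25 on the BPA arrays and -3.38, -4.03 and -3.40 on the DMSO arrays. The 2 sets of arrays lay far apart, and the log2 fold change of 2.28 ± 0.13 was the highest of the called genes (4.85-fold, adjusted p = 3.6e-12). Plin1, perilipin, which coats the lipid droplet, had log2 ratios of -0.05, -0.14 and 0.01 on the BPA arrays and -2.25, -2.34 and -2.20 on the DMSO arrays. Its BPA arrays were at the level of the reference and its DMSO arrays far below (4.6-fold, log2 fold change 2.20 ± 0.09, adjusted p = 6.7e-14). Adipoq, the adipokine adiponectin, had log2 ratios of -0.86, -0.76 and -0.74 on the BPA arrays and -2.69, -2.78 and -2.52 on the DMSO arrays, again without overlap (log2 fold change 1.88 ± 0.10, adjusted p = 1.6e-12).

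The remaining genes at the top of the list had like roles. They were Cd36 (2.02 ± 0.10), a fatty acid transporter, Cidec (1.81 ± 0.12), which fuses lipid droplets, Gpd1 (1.69 ± 0.13), which makes glycerol 3-phosphate for triglyceride, Thrsp (1.69 ± 0.10), a lipogenic nuclear protein, Ces1d (1.59 ± 0.10), a triglyceride hydrolase, and Pck1 (1.55 ± 0.10), which supplies glyceroneogenesis. Lipoprotein lipase, Lpl (0.87 ± 0.06), was also higher. Mrap (1.87 ± 0.11), the accessory protein of the ACTH receptor, Ephx2 (1.54 ± 0.10), the soluble epoxide hydrolase, and Prxl2a (1.82 ± 0.09) completed the 12 genes with the largest rise. The 3 adipocyte markers that were not called were Lep (-0.03 ± 0.05), Rbp4 (-0.03 ± 0.08) and Aqp7 (0.11 ± 0.07), the genes of leptin, retinol binding protein and a glycerol channel. After quantile normalization, 17 of the 28 markers were called higher and 2 lower, with a median of 0.41. The log2 fold changes were then 1.30 for Fabp4, 1.26 for Plin1, 0.75 for Cd36, 0.66 for Adipoq, 0.62 for Mrap, 0.60 for Cidec, 0.43 for Gpd1, 0.62 for Thrsp, 0.58 for Ces1d, 0.74 for Ephx2, 0.72 for Prxl2a, 0.45 for Lpl, 0.47 for Plin4 and 0.30 for Pck1.

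A smaller group of fat cell genes depended on the scaling. The fatty acid desaturase Scd1 (1.40 ± 0.09), the triglyceride synthase Dgat2 (1.53 ± 0.09) and the insulin-dependent glucose transporter Slc2a4 (1.43 ± 0.08) were called higher, but after quantile normalization their values of 0.15 for Scd1 (adjusted p = 0.3), 0.22 for Dgat2 (adjusted p = 0.083) and 0.18 for Slc2a4 (adjusted p = 0.076) were not. The carbonic anhydrase gene Car3 (0.93 ± 0.13) was higher as deposited and lower after quantile normalization (-0.36). Fasn, fatty acid synthase, had log2 ratios of -0.75, -0.62 and -0.58 on the BPA arrays and -0.90, -1.04 and -0.76 on the DMSO arrays. The lowest BPA array lay just above the highest DMSO array, and its log2 fold change of 0.25 ± 0.09, adjusted p = 0.046, lost its call without BPA replicate 2 or 3 or DMSO replicate 1 or 2 (adjusted p up to 0.25) and turned to -0.11 after quantile normalization. In these bulk samples, more fat cells and more RNA per fat cell cannot be told apart.

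**Figure D1:**
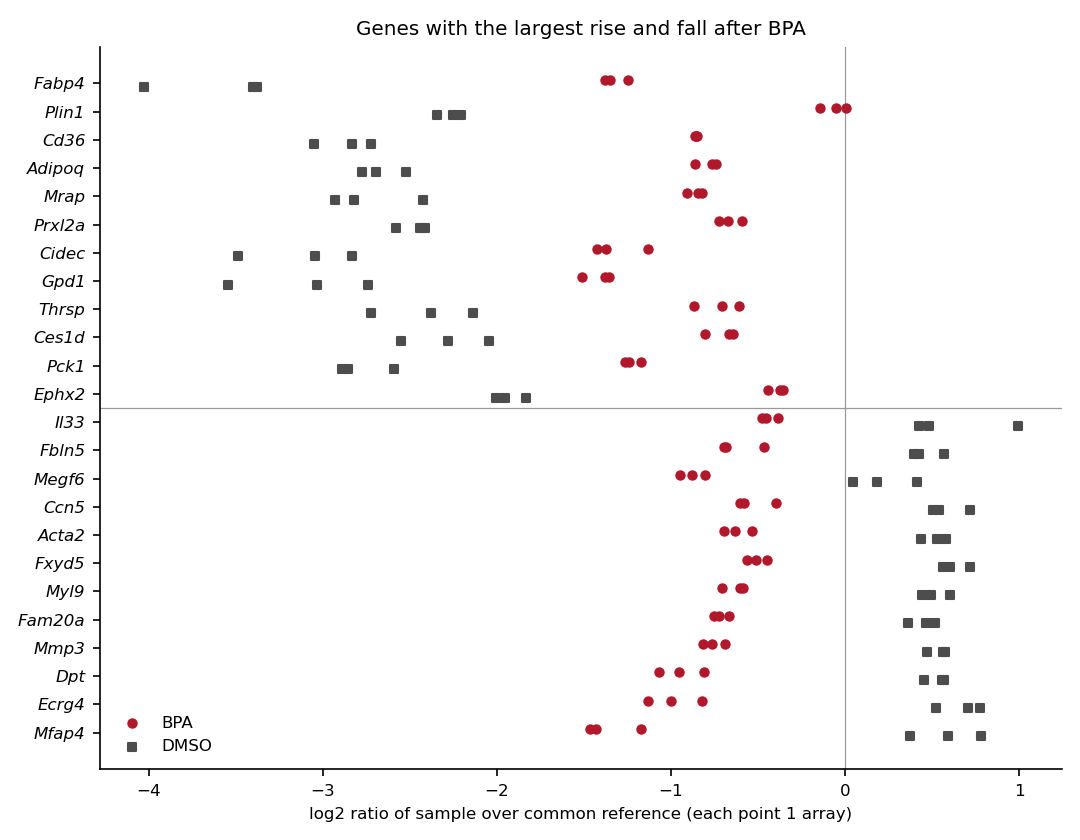
Each point is the log2 ratio of 1 array to the common reference (x axis), for the 12 called genes with the largest rise (upper part) and the 12 with the largest fall (lower part) in BPA (red circles) against DMSO (grey squares). The BPA and DMSO arrays do not overlap for any of these genes, for which the DMSO arrays lie below the reference in the upper part and above it in the lower part.

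The transcription factors of the fat cell programme moved with their targets. Pparg, the master regulator, had log2 ratios of -0.29, -0.29 and -0.26 on the BPA arrays and -1.30, -1.51 and -1.24 on the DMSO arrays. All BPA arrays lay above all DMSO arrays, a rise of 2.1-fold (log2 fold change 1.07 ± 0.06, adjusted p = 8.9e-12). Cebpa, its partner, had log2 ratios of 0.00, -0.06 and 0.03 on the BPA arrays and -0.95, -1.09 and -0.71 on the DMSO arrays and rose by 0.91 ± 0.09 on the log2 scale (adjusted p = 4.7e-08). The oxysterol receptor LXR alpha, Nr1h3 (0.94 ± 0.08), and the coactivator PGC-1 alpha, Ppargc1a (0.57 ± 0.10), were also higher. The early factors behaved differently: Cebpb had a log2 fold change of 0.10 ± 0.07 and was not called (adjusted p = 0.37), while Cebpd fell (-0.69 ± 0.10, adjusted p = 2.8e-05). These 2 factors were picked out after their values had been seen. The BPA arrays of Cebpd were spread, with an SD of 0.33 against 0.09 in DMSO. Klf4, an early adipogenic Kruppel-like factor, had log2 ratios of -0.11, 0.04 and 0.02 on the BPA arrays and 0.68, 0.85 and 0.50 on the DMSO arrays and fell by 0.69 on the log2 scale (adjusted p = 5.2e-05). Over the 27 adipogenic regulators measured, 11 were higher (40.7%, against 12.6% of all named genes) and 4 lower (14.8%, against 7.96%). Under quantile normalization the log2 fold changes were 0.53 for Pparg, 0.60 for Cebpa, 0.42 for Nr1h3, 0.36 for Ppargc1a and -1.07 for Klf4.

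Genes that mark the preadipocyte or hold back differentiation went the other way. Of 29 measured, 10 were lower (34.5%, against 7.96% of all named genes) and 2 higher, namely Id1 (0.25 ± 0.07) and Foxo1 (0.19 ± 0.05), of which 1 was called without BPA replicate 2 and 1 after quantile normalization. Dlk1, the preadipocyte factor Pref-1, had log2 ratios of -0.15, -0.11 and -0.16 on the BPA arrays and 0.17, 0.20 and 0.29 on the DMSO arrays, and its fall was modest (log2 fold change -0.36 ± 0.06, adjusted p = 1.8e-04). Larger falls were measured for Ccn5 (-1.11 ± 0.07), a secreted matricellular protein of fibroblasts, Klf2 (-0.73 ± 0.10), a repressor of Pparg, Trib3 (-0.62 ± 0.07), an inhibitor of insulin signalling, and Thy1 (-0.52 ± 0.07), a surface marker of fibroblasts.

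Of 28 direct targets of PPAR gamma, 20 were higher (71.4%, against 12.6% of all named genes) and 1 lower (3.57%, against 7.96%). The median log2 fold change was 0.69. This list shares members with the adipocyte markers, such as Fabp4, which had the highest value in both. Outside the markers named above, the peroxisome division gene Pex11a (1.21 ± 0.07), the lipase inhibitor Angptl4 (0.75 ± 0.10) and the hydrogen peroxide-degrading enzyme catalase, Cat (0.49 ± 0.05), were higher. The lower gene was Pdk4, the kinase that shuts off pyruvate dehydrogenase and a known PPAR target. It had log2 ratios of -0.78, -0.78 and -0.67 on the BPA arrays and -0.40, -0.58 and -0.47 on the DMSO arrays, without overlap. Its fall of 0.26 on the log2 scale (adjusted p = 0.011) was lost without DMSO replicate 1 (adjusted p = 0.066) and became -0.45 after quantile normalization. In the ROSI samples the mean of Pdk4 was 1.14 ± 0.12 (SD, n = 3) and in DMSO -0.48 ± 0.09, and BPA minus ROSI was -1.88 ± 0.07 (adjusted p = 4.2e-16). Fabp3, the muscle-type fatty acid binding protein, was called higher (0.73 ± 0.18, adjusted p = 0.0048), but not without DMSO replicate 2 (adjusted p = 0.061), and was lower after quantile normalization (-0.49). After quantile normalization 13 of the PPAR gamma targets were called higher and 3 lower. Angptl4 was not called (0.24) and Pex11a had 0.56.

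Genes of fat storage and use were higher in each of the 4 lists that cover them. Among all named genes 12.6% were higher and 7.96% lower. In triglyceride synthesis 11 of 17 genes were higher, 7 after quantile normalization, and none of the other 6 lower, or 1 without DMSO replicate 1 or BPA replicate 3. The higher genes included the acyltransferase Gpat3 (1.40 ± 0.08) and the phosphatidate phosphatase Lpin1 (0.38 ± 0.04). For Lpin1 the probes disagreed, with log2 fold changes from -0.003 to 0.76. On the lipid droplet list 12 of 21 were higher, among them perilipin 4, Plin4 (1.04 ± 0.06), and 0 lower. After quantile normalization 10 were higher and 3 lower, with the median falling from 0.55 to 0.14, and 1 was lower without DMSO replicate 3. In fatty acid synthesis 16 of 25 were higher and 0 lower. Without DMSO replicate 2 or BPA replicate 3, 10 were higher, and without DMSO replicate 2 or BPA replicate 1, 1 was lower. The higher genes included pyruvate carboxylase, Pcx (1.47 ± 0.11), and the elongation enzyme Hsd17b12 (0.74 ± 0.07), beside Thrsp and Scd1. In fatty acid oxidation 20 of 31 were higher, such as Hadh (0.68 ± 0.07), Acaa2 (0.53 ± 0.05) and Etfdh (0.65 ± 0.06), and 1 was lower, the carnitine transferase Cpt1a (-0.37 ± 0.05). After quantile normalization 6 of the 25 synthesis genes and 5 of the 31 oxidation genes were called higher and 1 of each lower, and Acaa2 (0.03) and Etfdh (0.12) were not called. The log2 fold changes that kept their call became 0.67 for Gpat3, 0.15 for Lpin1, 0.66 for Pcx and 0.44 for Hadh.

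The mitochondrial programme rose broadly and by small steps. For comparison, 12.6% of all named genes were higher and 7.96% lower. Of 55 nuclear genes of oxidative phosphorylation 47 were higher (85.5%) and 0 lower, with a median log2 fold change of 0.33, and after quantile normalization 31 were higher and 0 lower, with a median of 0.19. Cycs, cytochrome c, had log2 ratios of -0.57, -0.56 and -0.49 on the BPA arrays and -1.37, -1.55 and -1.46 on the DMSO arrays. Its BPA arrays were all above its DMSO arrays (log2 fold change 0.92 ± 0.05, adjusted p = 8.5e-12). The complex III subunits Cyc1 (0.78 ± 0.06) and Uqcrc2 (0.77 ± 0.05) and the complex II subunit Sdhb (0.37 ± 0.03) had the smallest p-values beside it. In the tricarboxylic acid cycle 19 of 25 genes were higher, 13 after quantile normalization, and 0 lower, among them the pyruvate dehydrogenase subunit Pdhb (0.83 ± 0.08) and the pyruvate carrier Mpc1 (0.57 ± 0.05), whose value of 0.12 after quantile normalization was not called. For the others the values after quantile normalization were 0.31 for Cycs, 0.40 for Cyc1, 0.34 for Uqcrc2, 0.20 for Sdhb and 0.38 for Pdhb. The mitochondrial chaperones Hspd1 (0.52 ± 0.07) and Hspe1 (0.35 ± 0.04) and the matrix superoxide dismutase Sod2 (0.66 ± 0.06) were higher as well, with Hspd1 at 0.25 and Sod2 at 0.34 after quantile normalization.

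Among sterol genes the counts depended on the scaling. The share of all named genes that were higher was 12.6%. Of 15 targets of LXR, 10 were higher, 5 after quantile normalization, and 0 lower, and the higher genes included, apart from Scd1, Apoc1 (1.10 ± 0.11) and Apoc2 (0.59 ± 0.07), 2 lipoprotein genes that share a cluster. Of 25 genes of cholesterol synthesis, 12 were higher and 0 lower, but after quantile normalization 1 was higher and 0 lower. The 4 with the smallest p-values were the entry enzyme Hmgcs1 (0.25 ± 0.05) and the later enzymes Pmvk (0.41 ± 0.06), Idi1 (0.39 ± 0.07) and Nsdhl (0.36 ± 0.07). After quantile normalization Hmgcs1 had a log2 fold change of 0.17, Idi1 0.12 and Nsdhl 0.11, and Pmvk turned to -0.06. Apoc1 and Apoc2 then lost their calls, with values of 0.09 and 0.07.

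**Figure D2:**
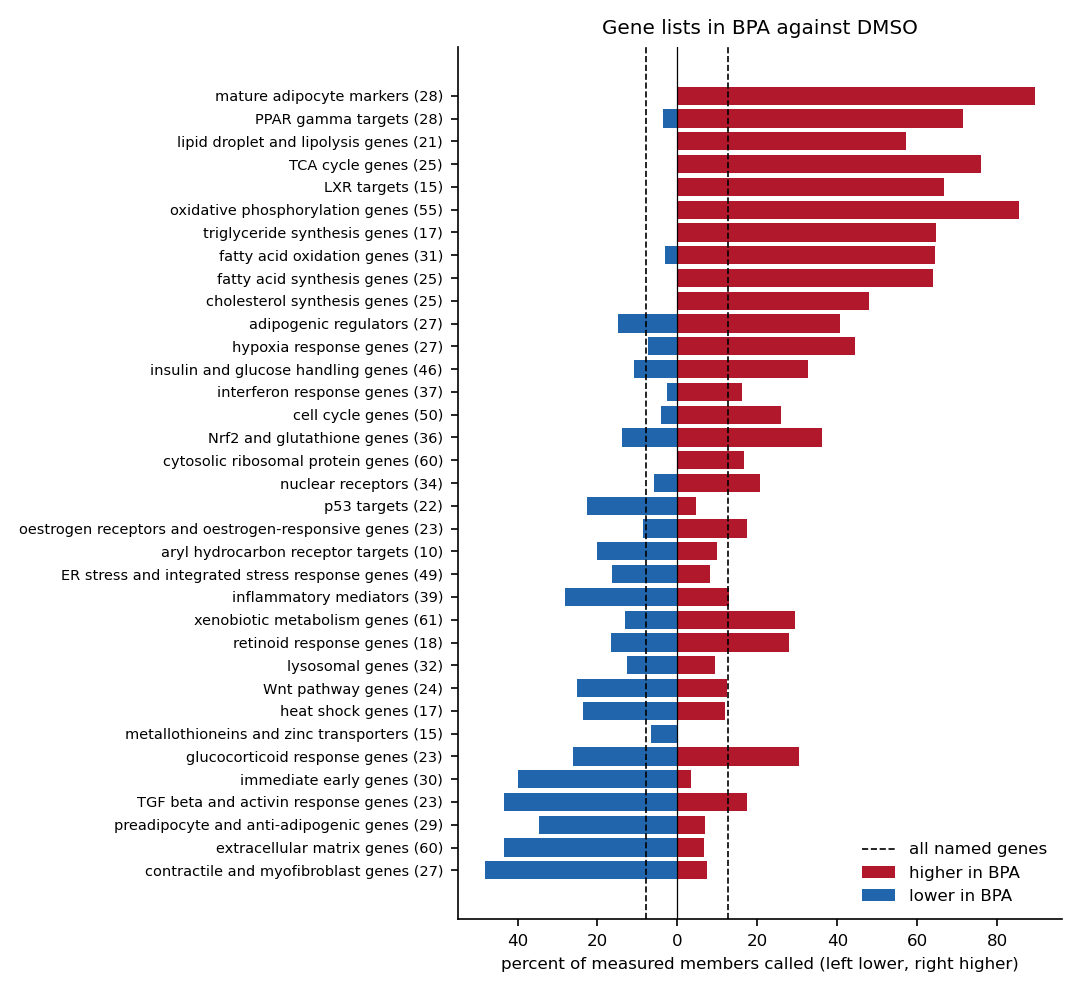
For each gene list (number of measured members in brackets), the bars give the percent of members called higher (red, right) and lower (blue, left) in BPA against DMSO, ordered by the median log2 fold change. The dashed lines mark all named genes, 12.6% higher and 7.96% lower. Lists of fat cell, lipid and mitochondrial genes are at the top, and contractile, matrix and TGF beta genes at the bottom.

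The falls were led by the fibroblast's contractile and matrix genes. For comparison, 7.96% of all named genes were lower and 12.6% higher. Of 27 contractile and myofibroblast genes 13 were lower (48.1%) and 2 higher, with a median log2 fold change of -0.21. Acta2, smooth muscle alpha-actin, had log2 ratios of -0.53, -0.69 and -0.63 on the BPA arrays and 0.58, 0.53 and 0.44 on the DMSO arrays. The groups did not overlap, and the fall was 2.19-fold (log2 fold change -1.13 ± 0.08, adjusted p = 4.5e-10). Myl9, the regulatory light chain of smooth muscle myosin, had log2 ratios of -0.58, -0.60 and -0.70 on the BPA arrays and 0.50, 0.61 and 0.44 on the DMSO arrays, with the same separation (log2 fold change -1.15 ± 0.07, adjusted p = 2.2e-11). The beta-tropomyosin gene Tpm2 (-0.42 ± 0.04) and the calponin gene Cnn2 (-0.69 ± 0.08) fell too. The higher genes of the list were Cav1 (0.92 ± 0.08), caveolin-1, a membrane protein that fat cells also hold in large amounts, and Des, desmin (0.20 ± 0.05, adjusted p = 0.0051), whose call was lost without DMSO replicate 2 (adjusted p = 0.054).

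Promoters of 2 genes that fell and 2 that rose are shown because they hold the sequence motif known for their programme. CArG boxes are bound by serum response factor, which drives contractile genes, and C/EBP proteins bind the pattern TTNNGCAA or its reverse complement TTGCNNAA. The bases are the 250 before the RefSeq transcription start in build GRCm38.p6, with the motif in capitals. The regions are chr2:156775214-156775463, plus strand for Myl9, chr10:79988350-79988599, plus strand for Cnn2, chr7:79732777-79733026, minus strand for Plin1 and chr6:113434765-113435014, minus strand for Cidec.
Myl9: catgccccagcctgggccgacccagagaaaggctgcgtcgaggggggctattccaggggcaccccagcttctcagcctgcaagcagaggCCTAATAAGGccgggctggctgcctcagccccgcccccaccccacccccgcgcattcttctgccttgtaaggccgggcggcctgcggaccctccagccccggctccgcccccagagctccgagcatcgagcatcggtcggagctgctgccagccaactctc
Cnn2: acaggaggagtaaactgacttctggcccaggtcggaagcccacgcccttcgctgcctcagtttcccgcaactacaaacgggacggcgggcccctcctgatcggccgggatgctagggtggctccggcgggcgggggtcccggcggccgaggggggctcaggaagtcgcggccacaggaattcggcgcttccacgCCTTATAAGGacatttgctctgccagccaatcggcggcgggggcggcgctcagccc
Plin1: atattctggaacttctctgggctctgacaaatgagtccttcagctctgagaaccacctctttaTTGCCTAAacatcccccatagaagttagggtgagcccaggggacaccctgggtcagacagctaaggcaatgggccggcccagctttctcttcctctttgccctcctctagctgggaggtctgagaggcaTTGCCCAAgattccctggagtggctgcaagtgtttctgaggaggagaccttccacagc
Cidec: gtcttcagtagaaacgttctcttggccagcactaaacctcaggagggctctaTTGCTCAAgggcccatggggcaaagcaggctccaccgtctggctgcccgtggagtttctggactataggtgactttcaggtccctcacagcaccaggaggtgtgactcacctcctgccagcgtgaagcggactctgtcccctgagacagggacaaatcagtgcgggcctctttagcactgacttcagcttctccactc
Both strands of the 250 bases before each start were searched. A CArG box was found in 3 of 28 promoters of the contractile genes (10.7%; Cnn2, Myl9 and Vcl) and in 1.47% of all 32851 promoters. Vcl differed less than Cnn2 and Myl9, with a mean log2 ratio of -0.003 ± 0.040 (SD, n = 3) in BPA and 0.149 ± 0.058 in DMSO. The C/EBP pattern was found in 5 of 26 promoters of the adipocyte markers (19.2%; Cidec, Lep, Plin1, Pparg and Rbp4) and in 9.56% of all promoters. Lep and Rbp4 hold the pattern and were not called. For the mitochondrial genes, the palindromic NRF-1 motif was found in 1 of 49 promoters (2.04%, Atp5k; 0.782% of all) and the oestrogen-related receptor motif TCAAGGTCA in 1 of 49 (2.04%, Atp5g3; 0.387% of all). Some genes have more than 1 promoter in the table, and a match describes the letters and is not a measured binding site.

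Of 60 matrix genes 26 were lower (43.3%, against 7.96% of all named genes) and 4 higher (6.67%, against 12.6%). The median log2 fold change was -0.19. Mfap4, a microfibril-associated glycoprotein, had log2 ratios of -1.43, -1.17 and -1.46 on the BPA arrays and 0.37, 0.78 and 0.59 on the DMSO arrays. This was the largest fall among the called named genes, 3.83-fold (log2 fold change -1.94 ± 0.10, adjusted p = 2.3e-12). The elastic fibre genes Fbln5 (-1.08 ± 0.08), Mfap5 (-0.91 ± 0.06) and Eln (-0.67 ± 0.05) and the latent TGF beta binding protein Ltbp2 (-0.69 ± 0.06) all fell. Mmp3, the protease stromelysin-1, fell by 1.30 ± 0.12 on the log2 scale, dermatopontin, Dpt, by 1.47 ± 0.09, and the secreted peptide gene Ecrg4 by 1.65 ± 0.09. Col1a1, the main fibrillar collagen chain, fell less (-0.53 ± 0.10, adjusted p = 2.4e-04). The 4 higher matrix genes were Vcan (0.51 ± 0.11), Nid2 (0.44 ± 0.06), Tnxb (0.31 ± 0.09) and Nid1 (0.28 ± 0.05), 2 of which encode the basement membrane nidogens.

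The TGF beta family split within itself. Of 23 genes of the pathway and its response, 10 were lower (43.5%, against 7.96% of all named genes) and 4 higher (17.4%, against 12.6%). The ligand Tgfb3 (-1.05 ± 0.08), the feedback gene Pmepa1 (-0.88 ± 0.07) and Ltbp2 fell. Tgfbi, a secreted matrix protein induced by TGF beta, had log2 ratios of 0.83, 0.89 and 0.69 on the BPA arrays and -0.16, 0.17 and 0.18 on the DMSO arrays and rose (log2 fold change 0.74 ± 0.07, adjusted p = 5.0e-08), and the ligand Tgfb2 was higher (0.45 ± 0.08). In the Wnt list 6 of 24 were lower (25%), such as the receptor Fzd7 (-0.26 ± 0.03) and the secreted Dkk3 (-0.32 ± 0.07). The list had 3 higher genes (12.5%, near the 12.6% of all named genes), including the Wnt amplifier Rspo3 (0.45 ± 0.08).

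Among inflammatory and immediate early genes more were lower than higher. Of 39 inflammatory mediators 11 were lower (28.2%) and 5 higher, 2 after quantile normalization, and the other 23 were not called. Il33, an alarmin cytokine, had log2 ratios of -0.48, -0.39 and -0.45 on the BPA arrays and 0.48, 1.00 and 0.43 on the DMSO arrays, and fell without overlap although DMSO replicate 2 stood above the other 2 (log2 fold change -1.07 ± 0.11, adjusted p = 6.6e-08). The monocyte attractants Ccl7 (-0.79 ± 0.08) and Ccl2 (-0.66 ± 0.09) fell and the chemokine Cxcl12 (0.39 ± 0.06) rose. Haptoglobin, Hp, which fat cells secrete, was higher (1.00 ± 0.10) but changed sign after quantile normalization (-0.17). Of 30 immediate early genes 12 were lower (40%), led by the orphan receptor Nr4a1 (-0.84 ± 0.06) and by Klf2 and Klf4, and 1, the phosphatase gene Dusp4 (0.87 ± 0.06), was higher. Binding proteins of insulin-like growth factor fell, Igfbp3 (-0.81 ± 0.06) and Igfbp6 (-0.78 ± 0.06). They belong to the list of 46 insulin and glucose handling genes, of which 15 were higher (32.6%) and 5 lower (10.9%). After quantile normalization 5 were higher and 4 lower, and without DMSO replicate 1 there were 3 lower. Of 34 nuclear receptors 7 were higher (20.6%) and 2 lower (5.88%). Of 18 retinoid response genes 5 were higher (27.8%) and 3 lower (16.7%). Of 32 lysosomal genes 3 were higher (9.38%) and 4 lower (12.5%), while of all named genes 12.6% were higher and 7.96% lower.

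The oestrogen receptor gene was not called, and oestrogen-responsive genes were called about as often as all genes. Esr1, oestrogen receptor alpha, had log2 ratios of -0.10, 0.01 and 0.00 on the BPA arrays and 0.03, -0.03 and -0.04 on the DMSO arrays. The 2 groups overlapped fully, and the difference of -0.02 ± 0.04 was not called (adjusted p = 0.85, 95% confidence interval -0.10 to 0.07). Of 23 oestrogen receptors and responsive genes 4 were higher and 2 lower, 17.4% and 8.7%, which is near the 12.6% and 7.96% of all named genes, and the lower genes were Ccn5 and cyclin D1, Ccnd1 (-0.66 ± 0.06). The oestrogen-related receptor alpha gene, Esrra (0.59 ± 0.06), a partner of PGC-1 alpha at mitochondrial genes, was higher (adjusted p = 1.4e-07), with a value of 0.35 after quantile normalization.

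Of 10 aryl hydrocarbon receptor genes 1 was higher (10%, against 12.6% of all named genes) and 2 lower (20%, against 7.96%). Without DMSO replicate 2, 1 was lower, and after quantile normalization 0 were higher. Cyp1b1, a sensitive target of that receptor, had log2 ratios of -0.07, -0.02 and -0.03 on the BPA arrays and -0.05, 0.15 and -0.03 on the DMSO arrays, and the overlapping groups differed by -0.06 ± 0.05 (adjusted p = 0.48). Nqo1, a target of Nrf2, had log2 ratios of -0.15, 0.27 and 0.24 on the BPA arrays and 0.25, 0.14 and 1.36 on the DMSO arrays. One DMSO array stood far above the other 5, and the difference of -0.47 ± 0.24 was not called (adjusted p = 0.2). Of 61 xenobiotic metabolism genes 18 were higher (29.5%, against 12.6% of all named genes) and 8 lower (13.1%, against 7.96%). Large rises were those of Ephx2 (above), Aldh1a7 (1.49 ± 0.09), Cyp26b1 (0.88 ± 0.09) and Mgst1 (0.64 ± 0.07). The retinal dehydrogenase Aldh1a1 (-0.39 ± 0.06) fell. Cyp26b1 degrades retinoic acid. After quantile normalization the values were 0.55 for Aldh1a7 and 0.49 for Cyp26b1. Of 36 Nrf2 and glutathione genes 13 were higher (36.1%, against 12.6% of all named genes) and 5 lower (13.9%, against 7.96%). After quantile normalization 7 were higher and 4 lower, and without DMSO replicate 1 or BPA replicate 2 there were 3 lower.

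Of 49 genes of ER stress and the integrated stress response 8 were lower (16.3%, against 7.96% of all named genes) and 4 higher (8.16%, against 12.6%). The higher genes were 2 after quantile normalization and without DMSO replicate 2 or BPA replicate 2, and the lower ones included Chac1 (-0.73 ± 0.07), which degrades glutathione, and the transcription factor Atf3 (-0.35 ± 0.06), beside Trib3. Of 17 heat shock genes 4 were lower and 2, the mitochondrial chaperones above, higher. Of 22 targets of p53, 5 were lower, such as the polo-like kinase Plk2 (-0.54 ± 0.11), and 1 higher, or 2 without DMSO replicate 1. Of 15 metallothioneins and zinc transporters 1 was lower, the zinc transporter Slc39a13 (-0.33 ± 0.06), and 0 higher. Of 23 glucocorticoid response genes 7 were higher (30.4%) and 6 lower (26.1%), and after quantile normalization 2 were higher and 5 lower. Of 27 hypoxia response genes 12 were higher (44.4%) and 2 lower, or 1 lower without DMSO replicate 3 or BPA replicate 1, but after quantile normalization 4 were higher and 2 lower, with the oxygen sensor Egln3 (0.62 ± 0.10) turning to -0.09.

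Some cell cycle genes were higher. Of 50 cell cycle genes 13 were higher (26%, against 12.6% of all named genes), led by the CDK inhibitor gene Cdkn2c (0.59 ± 0.09) (0.31 after quantile normalization). The list had 2 lower genes (4%, against 7.96%), Ccnd1 and Ccnd3 (-0.28 ± 0.05). Of 60 cytosolic ribosomal protein genes 10 were higher (16.7%, against 12.6% of all named genes). After quantile normalization 4 were higher, as were 4 without DMSO or BPA replicate 1 and 2 without DMSO or BPA replicate 2. Of 37 interferon response genes 6 were higher (16.2%, near the 12.6% of all named genes) and 1 lower. After quantile normalization 1 was higher and 1 lower, without DMSO replicate 2 there were 2 higher, and without BPA replicate 1 there was 1. The lower gene, H2-K1 (-0.16 ± 0.06), was called without BPA replicate 3 but not without any other array. The largest, Ifi27l2a (1.08 ± 0.11), which was also far higher in the ROSI samples (below), turned to -0.22 after quantile normalization, and Xaf1 (0.88 ± 0.23, adjusted p = 0.0069) lost its call without BPA replicate 1 (adjusted p = 0.079).

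Of 34 markers of other cell types 5 were called, a smaller share than the 20.5% of all named genes. None of 5 epithelial and none of 4 chondrocyte markers was called, at 0.05 adjusted, and the skeletal muscle factors Myod1 (-0.03 ± 0.04) and Myf5 (-0.06 ± 0.09) were not called either. Of 9 macrophage markers 1 was lower, lysozyme, Lyz2 (-0.52 ± 0.14), a call that was lost without DMSO replicate 2 or BPA replicate 1 (adjusted p up to 0.064). Of 4 endothelial markers Egfl7 (0.41 ± 0.07) was higher, of 5 osteoblast markers Alpl (0.57 ± 0.09), the alkaline phosphatase gene (0.30 after quantile normalization), and of 7 muscle markers Des was higher and skeletal actin, Acta1 (-0.91 ± 0.07), lower. Because the values are ratios to a reference, they do not say whether a marker was present at all.

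Set directly against the MDI samples, BPA samples were far lower at the fat cell genes. Of all named genes 5260 (35.6%) were called, and 2495 (16.9%) were higher and 2765 (18.7%) lower in BPA than in MDI. All 28 adipocyte markers were lower, with a median log2 difference of -1.86, and so were all 55 oxidative phosphorylation genes (median -0.83). Pparg had a mean log2 ratio of -1.35 ± 0.14 (SD, n = 3) in DMSO, -0.28 ± 0.02 in BPA and 1.19 ± 0.06 in MDI, and Plin1 -2.27 ± 0.07, -0.06 ± 0.07 and 1.34 ± 0.08. For both genes BPA lay between the other 2 groups, at a distance from each beyond the spread of the replicates. Where the arrays of both groups lay apart, the largest gaps to MDI were those of Car3 (-3.93 ± 0.13), Cox7a1 (-3.80 ± 0.10), Hp (-3.79 ± 0.10), Selenbp1 (-3.77 ± 0.11) and 2610528A11Rik (-3.58 ± 0.11). Genes higher in BPA than in MDI included Cyp26b1 (1.58 ± 0.09), Id2 (1.42 ± 0.12), Myo5a (1.39 ± 0.15), Cygb (1.38 ± 0.07) and Dpp7 (1.35 ± 0.05), of which Id2 encodes an inhibitor of differentiation factors and Cygb cytoglobin. Of the TGF beta genes 15 of 23 were higher in BPA than in MDI and 2 lower.

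Against the ROSI samples the picture at the fat cell genes was like that against MDI. Of all named genes 3847 (26.1%) were called, and 1693 (11.5%) were higher and 2154 (14.6%) lower in BPA. Of the adipocyte markers 26 of 28 were lower (median -1.62), and of the PPAR gamma targets 26 of 28 (median -1.10). The widest gaps were those of Fabp3 (-4.80 ± 0.18), Cox8b (-3.47 ± 0.12), Ifi27l2a (-3.38 ± 0.11), Pck1 (-2.84 ± 0.10) and Cox7a1 (-2.70 ± 0.10). The transcription factor itself was close: Pparg was -0.20 ± 0.08 in ROSI and -0.28 ± 0.02 in BPA, a difference of -0.08 ± 0.06 (adjusted p = 0.46, 95% confidence interval -0.21 to 0.06). Cell cycle genes were higher in BPA, 41 of 50 (median 0.40), and the 5 largest rises over ROSI were Ckap2l (1.37 ± 0.31), H1f5 (1.33 ± 0.11), Gda (1.30 ± 0.08), Cpsf6 (1.09 ± 0.10) and H2ac11 (1.09 ± 0.08), which include a spindle gene and 2 histone genes.

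Of the 9 comparisons of BPA, that with BBP called the fewest genes, followed by that with BP (2027 genes, 13.7%, of which 844 or 5.72% of all named genes were higher and 1183 or 8.01% lower). Of all named genes 1479 (10%) differed from BBP, 652 (4.42%) higher and 827 (5.6%) lower in BPA. Without BPA replicate 2, 399 were higher and 551 lower. Among PPAR gamma targets 4 were higher and 2 lower of 28, and of the oxidative phosphorylation genes 4 of 55 were higher and 0 lower. Of the adipocyte markers 12 were lower in BPA, led by Car3 (-1.19 ± 0.13) and Scd1 (-1.13 ± 0.09), and 3 were higher, Plin1 (0.43 ± 0.09), Pparg (0.21 ± 0.06) and Lpl (0.20 ± 0.06). Of 25 cholesterol synthesis genes 13 were lower in BPA and 0 higher.

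The contractile and matrix genes separated the 2 exposures. Of 27 contractile genes 12 were lower in BPA than in BBP and 1 higher, and of 60 matrix genes 20 were lower and 5 higher. Acta2 was 0.46 ± 0.05 in BBP and -0.62 ± 0.08 in BPA (difference -1.08 ± 0.08), and Myl9 0.55 ± 0.07 and -0.63 ± 0.06 (difference -1.18 ± 0.07). Mfap4, at 0.32 ± 0.05 in BBP and -1.35 ± 0.16 in BPA, had the largest gap (-1.67 ± 0.10). In both BBP and DMSO these 3 genes lay above the reference and in BPA below it. The other genes with the largest differences between BPA and BBP were E2f6 (-1.47 ± 0.34), Ifi27l2a (-1.40 ± 0.11) and Ccdc125 (-1.33 ± 0.21) on the lower side and Gda (1.10 ± 0.08), Zcchc18 (1.10 ± 0.28), Kitl (0.93 ± 0.18), H1f5 (0.88 ± 0.11) and Cpsf6 (0.86 ± 0.10) on the higher side. E2f6 had a mean of 1.55 with an SD of 0.90 in BBP, 0.07 in BPA and 0.16 in DMSO. Ccdc125 had 1.18 in BBP, -0.16 in BPA and -0.31 in DMSO. In the PP samples, against which 2286 genes (15.5%) were called and 1006 (6.81%) were higher and 1280 (8.67%) lower in BPA, Mfap4 was as low as -1.78 ± 0.13, and 22 of 28 adipocyte markers were lower in BPA than in PP and 1 higher.

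**Figure D3:**
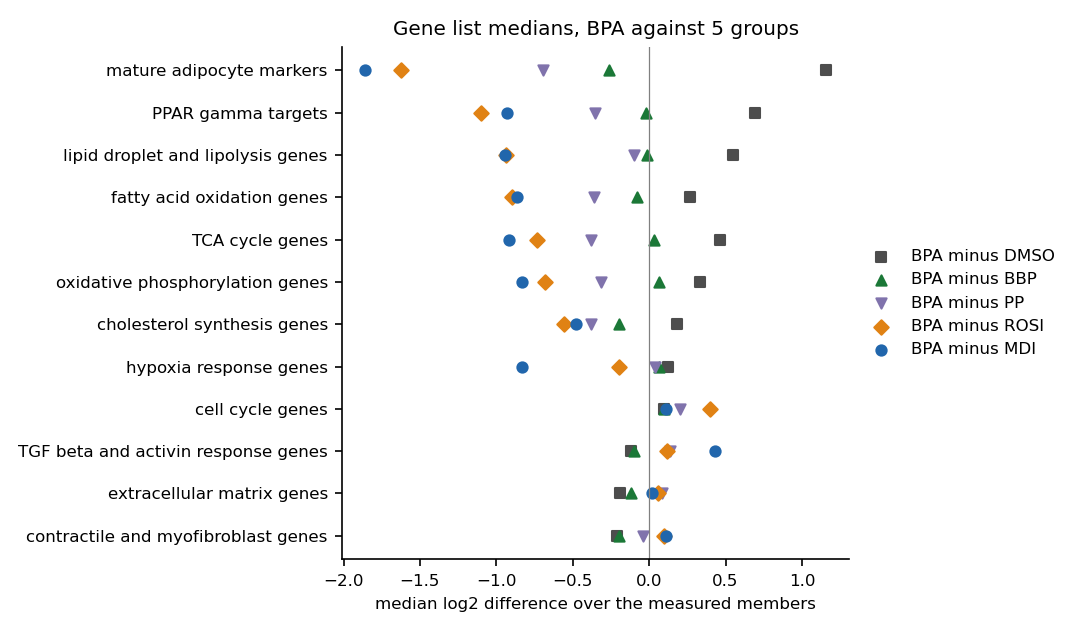
Each marker is the median log2 difference of BPA from another group over the measured members of a gene list (x axis, log2 units). Against DMSO the fat cell, lipid and mitochondrial lists lie above 0, and against MDI and ROSI below 0. Against BBP the medians run from -0.26 for the adipocyte markers to 0.10 for cell cycle genes, with cholesterol synthesis and contractile genes both near -0.20.

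A small set of genes set BPA apart from every other group. Passing the test against DMSO and against each of the 8 other exposures in the same direction, 48 genes (0.325% of all named genes) were higher and 22 (0.149%) lower in BPA. The counts depend on the arrays: without BPA replicate 1, 2 or 3 the higher genes were 26, 30 or 78, and with only the arrays of the 2 compared groups in each fit they were 10 higher and 9 lower. Gda, guanine deaminase, an enzyme of purine breakdown, had log2 ratios of 0.81, 0.89 and 0.78 on the BPA arrays and -0.67, -0.72 and -0.68 on the DMSO arrays and rose 2.86-fold over DMSO (log2 fold change 1.52 ± 0.08, adjusted p = 2.0e-12). Its next highest group mean was MDI, at 0.41 ± 0.16, against 0.83 ± 0.06 in BPA. Tgfbi was at 0.80 ± 0.10 in BPA, with TBT next at 0.55 ± 0.03. Gsta3, a glutathione transferase gene, was 0.48 ± 0.08 in BPA and at most 0.28 ± 0.01 elsewhere, in PP. Zcchc18 had log2 ratios of 1.03, 2.17 and 0.37 on the BPA arrays and 0.09, -0.13 and 0.08 on the DMSO arrays, so that its mean of 1.19 ± 0.91 rests on widely spread arrays. The other named genes that were higher were Pkd1l3 (0.62 ± 0.11), Zfp972 (0.56 ± 0.12), Capn5 (0.56 ± 0.18) and Fmr1 (0.53 ± 0.06), of which Fmr1 encodes the fragile X RNA-binding protein. The arrays of Capn5 overlapped between BPA and DMSO, its call against DMSO was lost without BPA replicate 1 or 2 or DMSO replicate 1 or 2 (adjusted p up to 0.22) and it was not called after quantile normalization (0.45).

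Among the genes that were lowest in BPA, Fam20a, a pseudokinase gene of the secretory pathway, had log2 ratios of -0.73, -0.66 and -0.75 on the BPA arrays and 0.36, 0.52 and 0.47 on the DMSO arrays. Its fall from DMSO was 2.24-fold (log2 fold change -1.16 ± 0.05, adjusted p = 6.7e-14), and the group next above BPA was MDI, at -0.58 ± 0.05. Fxyd5, a regulator of the sodium pump, was -0.51 ± 0.06 in BPA and 0.63 ± 0.08 in DMSO, with all other group means at -0.12 or above. Sod3, the extracellular superoxide dismutase, was -0.43 ± 0.08 in BPA and 0.08 ± 0.08 in DMSO, and Mest, an imprinted gene linked to fat cell size, -0.42 ± 0.04 and 0.17 ± 0.15. The remaining named genes were S100a11-ps (-0.51 ± 0.06), Rab3ip (-0.47 ± 0.05), H1f2 (-0.41 ± 0.05) and Gm5144 (-0.35 ± 0.06). The first of these is named as a pseudogene, whose probe may read its parent gene. H1f2 is a histone gene, and the histone genes H4c9, H2bc14, H2ac18, H2bc1 and H2bc8 were also among the 22 lower genes. Their log2 fold changes against DMSO ran from -0.35 for H4c9 to -0.13 for H2bc8. Some histone genes are close copies, so the 22 genes are not all independent.

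**Figure D4:**
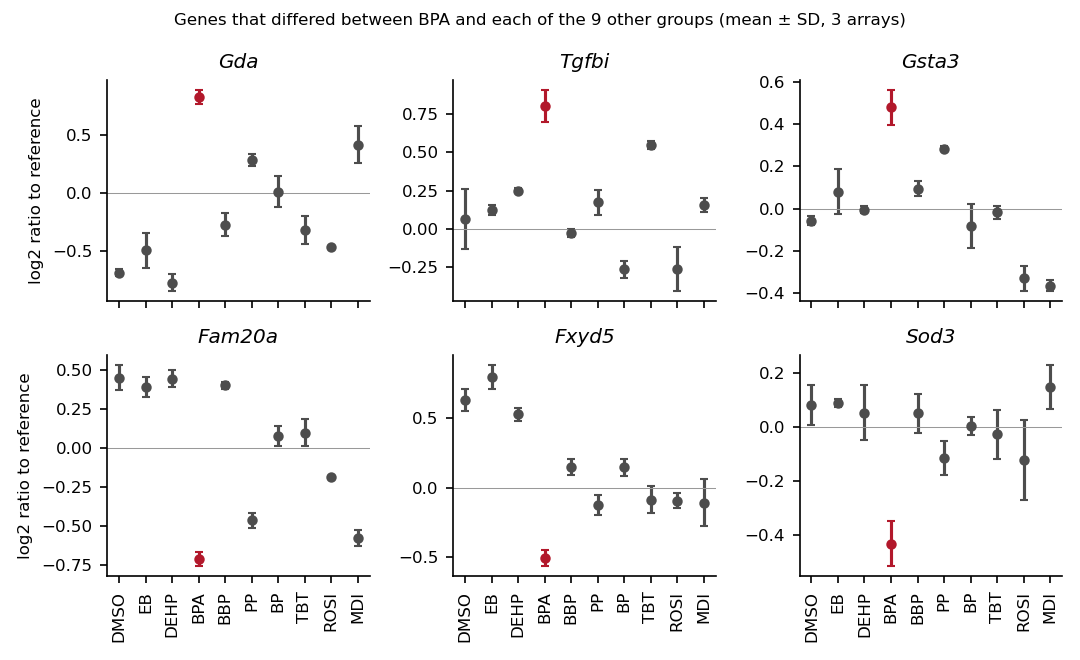
Each panel gives the mean log2 ratio to the reference (y axis) of 1 gene in each of the 10 groups, with the SD over 3 arrays as error bars and BPA in red. Gda, Tgfbi and Gsta3 are highest in BPA, and Fam20a, Fxyd5 and Sod3 are lowest.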

How the data were processed

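RNA of 3T3-L1 cells was measured on 30 2-colour Agilent arrays in 10 groups of 3, of which the BPA and DMSO groups are compared here. The authors analysed the arrays with limma, per the submitters' processing notes. The background correction, within-array normalization and probe filters are not given in the sources used here, nor are scan dates or slides, which could not be examined as batches. The authors deposited, for each probe and array, a log ratio of reference over sample. It was read as log2, because group differences equal, with opposite sign, the log2 fold change in the authors' deposited table for BPA (largest deviation 4.7e-08). That table also gives adjusted p-values deposited by the authors, at which 2888 probes were higher and 1610 lower at 0.05. The sign was turned to sample over reference.

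Of 23460 probes, 26 controls were dropped and the probes of a gene averaged, leaving 14763 named genes and 4468 probes with no gene symbol. The probe table supplied with the data named 18966 probes. A limma 3.58.1 model in R 4.3.3 with 1 mean per group was fitted to all 30 arrays (20 residual and 3.56 prior degrees of freedom), with two-sided moderated tests and Benjamini-Hochberg adjustment over all 19231 entries. The fit was tested on simulated data. The number of arrays limits the precision, and arrays have no read depth. With 3 against 3 samples an exact permutation test could not go below 0.1.

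The comparison, the 35 gene lists and the 6 marker lists were chosen with earlier results of these data known. A gene can belong to more than 1 list, as Fabp4 and Pparg do, so the counts of different lists are not independent. Genes are named by rule: the 12 highest and 12 lowest called genes whose arrays do not overlap, 22 key genes (1 not measured here), up to 4 of each list by smallest p, up to 8 each way of those that differ from all 9 groups, and up to 5 each way in the direct comparisons. Members named because a count was small, such as uncalled adipocyte markers, Cpt1a, Vcan, Tnxb, Nid1, Nid2, Id1, Foxo1, Cnn2 and Tgfb2, were chosen after their values were seen. The 9 comparisons share the BPA arrays. Alternatives were quantile normalization, median centring, robust variances, array weights, the median of a gene's probes, only the 2 groups compared, named genes only, a fold limit, a replicate block and leaving out each array. Promoters are RefSeq's, build GRCm38.p6. Figures were drawn in Python 3.11.15.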

Additional observations from a re-analysis of the deposited data

How the results depend on the processing

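Leaving out each BPA and DMSO array in turn gave 1326 to 1754 genes higher and 861 to 1139 lower in BPA than in DMSO. Leaving out each BPA array gave 399 to 632 higher and 551 to 691 lower than in BBP, 1356 to 1593 and 1903 to 2041 for ROSI, 2195 to 2374 and 2554 to 2622 for MDI, and 26 to 78 higher and 17 to 22 lower than all 9 groups. Quantile normalization gave 1135 higher than DMSO, of which 1129 were also higher without it. A minimum log2 fold change of 0.5 left 301 higher and 137 lower. With only the arrays of the compared groups, 434 genes were higher than BBP, and 10 were higher and 9 lower than all 9 groups. For these counts the cause was not tested, except that the fold limit narrows the count by construction. Median centring, robust variances, array weights and the median of a gene's probes, run for every comparison, and adjustment over named genes alone, run for DMSO, moved no count by over 1.5 times.

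Of 162 genes named, 10 changed sign after quantile normalization, to -0.70 for 2610528A11Rik, -0.36 for Car3, -0.15 for Cox7a1, -0.091 for Egln3, -0.49 for Fabp3, -0.11 for Fasn, -0.17 for Hp, -0.22 for Ifi27l2a, -0.057 for Pmvk and -0.44 for Selenbp1. A change of sign was counted whether or not the new value was itself called, and some of these values are near 0. Another 16 kept their sign and lost their call. The weakest probe had the opposite sign for Lpin1 (-0.0030) and Xaf1 (-0.073).

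Deviations of same-numbered BPA and DMSO replicates were weakly correlated over entries (0.0269, 0.072 and -0.025), and those of differently numbered ones ran from -0.0672 to 0.0483. With 3 arrays per group, this cannot show whether same-numbered samples were paired. With the replicate number as a block, 1884 genes were higher and 1194 lower in BPA than in DMSO. Signal over background is not in the deposited values, so dim probes could not be set apart.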

Other observations

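A run of neighbouring zinc-finger genes was higher in BPA. Of the 20 measured genes that lie between Edn3 and Phactr3 in the RefSeq gene order, 18 were higher than in DMSO and 0 lower. Among all named genes 12.6% were higher and 7.96% lower. The median log2 fold change of the 20 genes was 0.29 and the highest value 0.57, for Gm14411. Fewer were higher against the other groups, from 4 against BP to 15 against MDI, with 9 against PP, 11 against ROSI and 12 against BBP. The shares of all named genes were 5.72% for BP, 16.9% for MDI, 6.81% for PP, 11.5% for ROSI and 4.42% for BBP. Zfp972, which differed from all 9 groups, is one of them. The genes are close copies of each other, so that probes may read several of their transcripts and the 20 values are not independent. This set and those that follow were picked after the values had been seen and were not tested as sets.

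The replication-dependent histone genes split. Of 32 measured, 6 were higher and 11 lower in BPA than in DMSO, from -0.57 for H3c15 to 0.81 for H1f5. Among all named genes 12.6% were higher and 7.96% lower, and the 50 cell cycle genes counted 13 higher and 2 lower. Against ROSI 11 were higher and 13 lower. Many of the histone genes are near-identical copies, and their transcripts mostly carry no poly-A tail, while labelling started from a poly-dT primer.

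All 12 measured genes encoded in mitochondrial DNA had a value above 0 against DMSO, with a median of 0.41. Of these 4 were called higher, while 12.6% of all named genes were. All 12 also lay above 0 against EB and DEHP, with 9 and 2 called higher. Against MDI, ROSI, BP, BBP and PP all 12 lay below 0, with medians from -0.12 for BBP to -0.62 for PP. Against TBT 3 lay above 0. COX1 was highest (1.19), with DMSO replicate 1 at -2.77 and the other 2 DMSO arrays at -0.87 and -0.80. Of the 4468 probes without a gene symbol, 507 were higher and 165 lower in BPA.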
